A study of Mus musculus with 6 samples.

Results

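The genes described here are 10 transcription factor genes of the primitive streak and early mesoderm: T (Brachyury), Eomes, Mixl1, Evx1, Mesp1, Cdx1, Cdx2, Tal1, Msx2 and Hand1. They were chosen by name, and all 10 were found among the 27179 gene identifiers of the deposited read count table. Of these 10 genes, 8 had enough counts to be tested. The counts come from poly(A)-selected RNA of mouse embryonic stem cells of the ES-E14TG2a background. Both groups carried a FLAG tag on Trim71, an RNA-binding protein of stem cells. In the WT group the tagged protein was otherwise unaltered, and in the R783H group it carried that amino-acid change, which the series links to hydrocephalus. Each group had 3 libraries, lettered A, B and C. All cells grew with LIF, 3 uM CHIR99021, which inhibits GSK3 and so activates Wnt signalling, and 1 uM PD0325901, which inhibits MEK. Whether a letter marks a clone, a culture or a library preparation is not stated in the labels, and neither is whether a group is 1 clone, so p-values measure the spread between these libraries only.

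The primitive streak is the site of the gastrulating embryo where epiblast cells leave the epithelium and become mesoderm and endoderm. Wnt, Nodal, BMP and FGF signals induce it, and the T-box factors T and Eomes are among the first regulators switched on there. Mixl1 and Evx1 are homeobox genes of the streak, and Mesp1 follows in nascent and cardiac mesoderm. Cdx1 and Cdx2 are homeobox genes that pattern the posterior body axis, and both respond to Wnt signals. Tal1 directs blood formation from mesoderm, Msx2 is a homeobox gene induced by BMP signals, and Hand1 acts in extraembryonic and lateral mesoderm. Cdx2, Eomes and Hand1 also act in the trophoblast lineage. Embryonic stem cells transcribe some of these genes at low levels, and Wnt activation by CHIR99021 is known to raise several of them, T among them.

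The stretches before the transcription starts of T, Evx1, Cdx2 and Tal1 are shown because these 4 members fell by more than 3-fold. They come from RefSeq on GRCm38.p6, read 5' to 3' toward the start, and cover the 250 bases before it. That of Cdx2 stops 51 bases before the start, where another annotation already places its exon. They lie at chr17:8434173-8434422 on the plus strand for T, chr6:52313248-52313497 on the plus strand for Evx1, chr5:147307300-147307499 on the minus strand for Cdx2 and chr4:115056176-115056425 on the plus strand for Tal1. Capitals mark the short cores searched for on both strands.
T: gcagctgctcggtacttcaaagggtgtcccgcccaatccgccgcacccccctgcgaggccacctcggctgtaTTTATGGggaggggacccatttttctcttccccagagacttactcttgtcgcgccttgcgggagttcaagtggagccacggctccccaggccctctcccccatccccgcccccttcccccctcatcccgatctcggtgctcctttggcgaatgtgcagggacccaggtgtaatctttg
Evx1: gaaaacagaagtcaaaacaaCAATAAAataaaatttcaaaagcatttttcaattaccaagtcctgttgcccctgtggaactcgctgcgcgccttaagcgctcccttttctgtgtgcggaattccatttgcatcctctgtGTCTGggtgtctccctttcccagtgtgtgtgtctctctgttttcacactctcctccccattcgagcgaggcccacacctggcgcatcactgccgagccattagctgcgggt
Cdx2: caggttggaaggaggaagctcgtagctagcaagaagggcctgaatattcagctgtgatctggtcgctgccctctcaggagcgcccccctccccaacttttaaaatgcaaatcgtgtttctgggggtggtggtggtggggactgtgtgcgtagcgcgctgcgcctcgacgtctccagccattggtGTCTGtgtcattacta
Tal1: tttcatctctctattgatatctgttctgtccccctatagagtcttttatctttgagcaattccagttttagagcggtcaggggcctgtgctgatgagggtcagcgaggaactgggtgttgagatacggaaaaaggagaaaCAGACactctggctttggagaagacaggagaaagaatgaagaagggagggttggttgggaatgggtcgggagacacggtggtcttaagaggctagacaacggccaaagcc

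A core bound by CDX factors (TTTATNG) was found in the windows of T and Evx1, 178 and 230 bases before the start, and 9.81% of the 32851 RefSeq windows of the same length held it. The SMAD core CAGAC was found before Evx1, Cdx2, Tal1 and Mesp1, in 5 of the 8 member windows searched, but 42.2% of all windows held it. Of the 10 members 7 matched the RefSeq table, with 8 windows in all. Among these 8 windows the TCF/LEF core CTTTGAT was found once, before Mesp1, against 3.21% of all windows. The other TCF/LEF core searched, CTTTGTT, the T-box core GGTGTGA and the FOXH1 core AATNCAC were found in none of them, against 5.03%, 3.33% and 7.99% of all windows. No matches overlapped each other. These are descriptions of letters in the windows, and other forms of the TCF/LEF core were not searched. A window without a match may therefore still hold such a core.

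Library totals ran from 20894277 to 25174121 counts in WT and from 27807385 to 29079670 in R783H, so every R783H library was deeper. A floor of 3 counts corresponded to 0.0998 to 0.149 CPM (counts relative to library size after TMM scaling). The 14 stem cell markers, with Pou5f1, Nanog and Sox2 among them, were all detected, and summed to 7753 to 7857 CPM in WT and 7440 to 7501 CPM in R783H. Of these markers 4 were called lower, 4 higher (28.6% each) and 6 were not called, with a median log2 fold change of 0.008. Among the lower, Pou5f1 and Nanog had log2 fold changes of -0.21 (SE 0.05) and -0.23 (SE 0.04), and Sox2 was not called. Trim71 mRNA differed by less than its spread between libraries, at 140.5 ± 16.4 CPM in WT and 143.7 ± 12.8 CPM in R783H (SD, n = 3 each), with a change of 0.03 (SE 0.08; adjusted p = 0.743, edgeR) that became -0.22 (adjusted p = 0.00858, edgeR) with an offset for length and GC content. A count per gene cannot show the amino-acid change. Of 14199 tested genes, the quasi-likelihood test of edgeR called 64.5% at a Benjamini-Hochberg adjusted p under 0.05, 30.9% lower and 33.5% higher in R783H, so a call alone is common here. R783H B stood apart from A and C of its group, and without it 8 members were still called lower with a median log2 fold change of -1.49.

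All 8 members that could be tested were called lower in R783H, and 0 were called higher, against 30.9% of all tested genes called lower. Their CPM values did not overlap between the groups in any of the 8, which was true of 33.1% of tested genes in this direction. The decrease was at least 2-fold for Tal1, T, Evx1, Cdx2 and Mixl1, 5 members, against 3.17% of tested genes called and at least 2-fold lower and 5.91% at least 2-fold higher. Mixl1, Evx1 and Tal1 were rare, and among tested genes averaging 0.3 to 3 CPM 17.6% were called lower, 8.98% lower by at least 2-fold and 26.2% higher. The median log2 fold change of the 8 was -1.38, and that of all tested genes was 0.03. The members were proposed with results of these data in view, and Tal1 passed the filter on low counts through its WT libraries alone, so it had to be lower. These figures therefore describe the 8 genes. In bulk RNA, fewer cells transcribing a gene and less of its RNA per cell cannot be told apart.

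**Figure D1:**
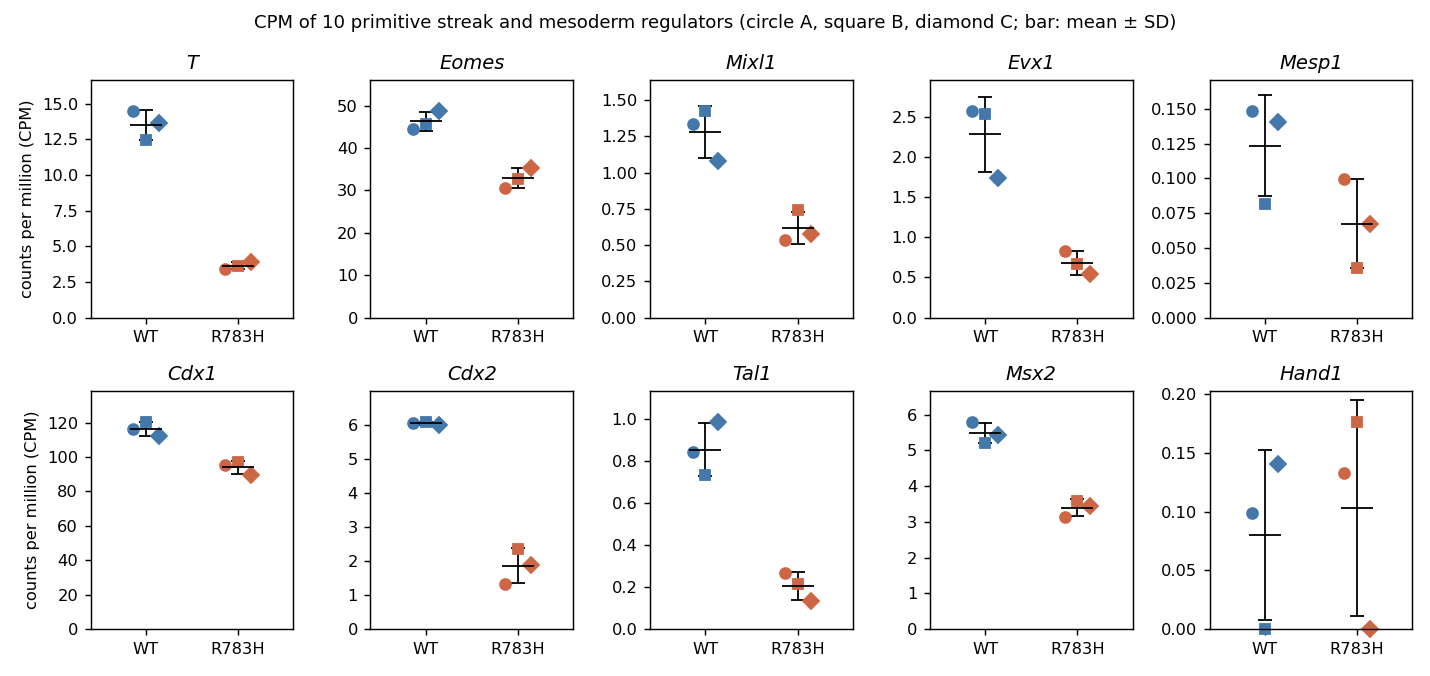
CPM of each member in each library, with a separate linear axis from 0 for each gene. Points are libraries (circle A, square B, diamond C) and bars the mean ± SD of 3. The groups are apart for 8 genes, from Cdx1 at 89.4 to 120.2 CPM to Tal1 at 0.135 to 0.984 CPM, and overlap for Mesp1 and Hand1.

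T, the T-box factor that defines the streak and mesoderm, stood at 14.5, 12.4 and 13.6 CPM in the WT libraries A, B and C, against 3.43, 3.59 and 3.88 CPM in the R783H libraries in that order. The lowest WT library was thus more than 3 times the highest R783H library. T (Entrez 20997) fell by 1.89 on the log2 scale (SE 0.10), to 3.71-fold lower (adjusted p = 1.16e-07, edgeR). Only 0.571% of tested genes had a lower log2 fold change. Eomes (Entrez 13813), the T-box factor that acts with T in the streak and specifies definitive endoderm, was more abundant and changed less. It stood at 44.4, 45.7 and 48.8 CPM in WT and at 30.5, 32.8 and 35.3 CPM in R783H. Eomes fell by 0.49 (SE 0.07) (adjusted p = 5.78e-05, edgeR). Its raw counts, 897 to 1121 in WT and 917 to 1047 in R783H, overlapped, and the groups were apart only per library size. Eomes shares exon sequence with the antisense gene Gm33460.

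Mixl1 and Evx1, the streak homeobox genes, were both rare. Mixl1 (Entrez 27217) had 27, 35 and 23 counts across the WT libraries and 16, 21 and 17 across R783H. Although each R783H library was deeper, every one of its counts was below every WT count. Mixl1 fell by 1.06 (SE 0.24) (adjusted p = 0.00241, edgeR), the largest adjusted p among the 8. Evx1 (Entrez 14028) had 52, 62 and 37 counts in WT and 25, 19 and 16 in R783H. The WT libraries were uneven, with WT C at 1.73 CPM beside 2.57 and 2.53 in A and B. Evx1 fell by 1.74 (SE 0.24) (adjusted p = 6.95e-05, edgeR). Evx1 overlaps the antisense gene Evx1os, which had 6 to 9 counts in WT and 4 to 7 in R783H, and whether counting used strand is not given in the sources used here.

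Cdx1 and Cdx2, the posterior homeobox genes, differed widely in level and in response. Cdx1 (Entrez 12590) was the most abundant member, at 116.1, 120.2 and 112.3 CPM in WT and 95.4, 96.9 and 89.4 CPM in R783H. The groups were apart by a small margin, and only per library size. Raw Cdx1 counts overlapped, at 2346 to 2949 in WT and 2647 to 2868 in R783H. Cdx1 fell by 0.31 (SE 0.05) (adjusted p = 2.21e-04, edgeR). This call depended on the processing, because with an offset for transcript length and GC content the change was -0.03 and edgeR's adjusted p was 0.463. Cdx2 (Entrez 12591), which also specifies trophectoderm, stood at 6.04, 6.08 and 5.999 CPM across the WT libraries. The R783H libraries were lower and less even, at 1.33, 2.36 and 1.89 CPM in A, B and C. Cdx2 fell by 1.70 (SE 0.17), to 3.25-fold lower (adjusted p = 6.73e-06, edgeR).

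Tal1 and Msx2 act in mesoderm derivatives. Tal1 (Entrez 21349), the blood regulator, had 17, 18 and 21 counts in WT and 8, 6 and 4 in R783H. It was close to the floor in R783H, so the size of its change, -2.03 on the log2 scale (SE 0.34), rests on few counts. Its adjusted p from edgeR was 2.86e-04. Msx2 (Entrez 17702) stood at 5.79, 5.22 and 5.44 CPM in WT and at 3.13, 3.59 and 3.44 CPM in R783H. It fell by 0.69 (SE 0.12) (adjusted p = 3.08e-04, edgeR). Each group was tight, so a change of 1.62-fold stood clear of the spread.

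Mesp1 and Hand1 gave no result. Mesp1 (Entrez 17292), the nascent mesoderm bHLH factor, had 3, 2 and 3 counts across the WT libraries and 3, 1 and 2 across R783H. Hand1 (Entrez 15110) had 2, 0 and 3 counts in WT and 4, 5 and 0 in R783H. Both lay at or near the floor of 3 counts, so a difference was not detectable at this depth, and no fold change is given.

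**Figure D2:**
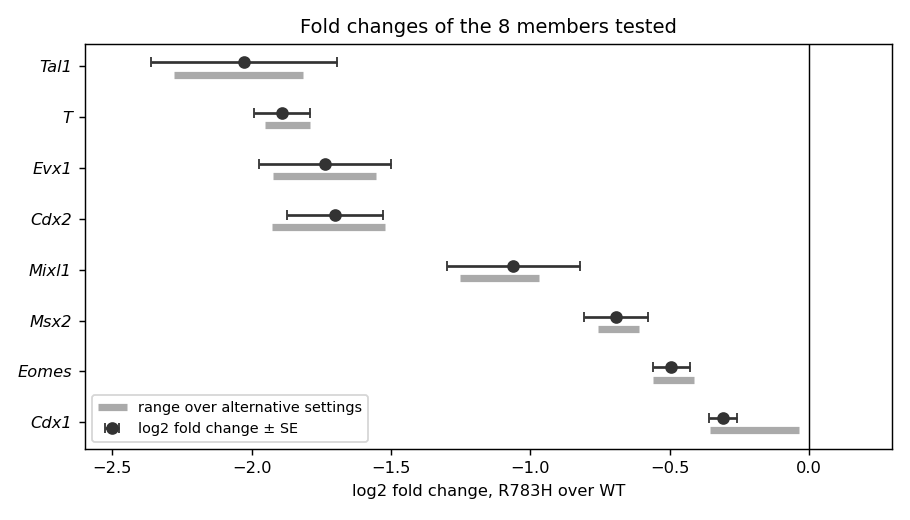
Log2 fold change (R783H over WT) of the 8 tested members, with points and bars for the value ± SE and grey bars for the range over the alternative settings. All 8 lie below 0, from -2.03 for Tal1 to -0.31 for Cdx1, and the grey bar of Cdx1 reaches -0.03.

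Fold changes among the 8 differed by member, and the most abundant changed least. Per kilobase of the longest annotated transcript, WT levels were 66.4 CPM for Cdx1, 13.0 for Eomes, 6.61 for T, 2.67 for Cdx2, 2.24 for Msx2, 0.792 for Evx1, 0.558 for Mixl1 and 0.203 for Tal1. In R783H the order per kilobase was Cdx1 at 53.7 CPM, Eomes at 9.24, T at 1.78, Msx2 at 1.38, Cdx2 at 0.823, Mixl1 at 0.268, Evx1 at 0.237 and Tal1 at 0.0485. Thus Msx2 and Cdx2 changed places in the order, as did Mixl1 and Evx1, although the libraries of the latter pair overlap per kilobase in both groups. Cdx1 and Eomes together made up 84.6% of the summed CPM of the 10 genes in WT and 92.3% in R783H. Because these 2 genes dominate it, that sum moved less than most members, from 190.3 to 194.5 CPM in WT to 135.2 to 141.0 CPM in R783H.

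Ratios between 2 members within a library do not depend on how libraries are scaled. For every 100 Eomes counts there were 32.7, 27.2 and 28.0 T counts across the WT libraries and 11.23, 10.97 and 10.98 across R783H. The R783H ratios were nearly identical to each other and far below WT. For every 100 Cdx1 counts there were 5.2003, 5.05 and 5.34 Cdx2 counts in WT and 1.39, 2.44 and 2.12 in R783H. Evx1 per 100 Mixl1 counts was 192.6, 177.1 and 160.9 in WT and 156.2, 90.5 and 94.1 in R783H, so R783H A lay near the WT range. In all 3 ratios the groups did not overlap. The exact two-sided permutation test gave p = 0.1 for each, adjusted 0.1 over the 3, the smallest value that 3 libraries against 3 allow. Each ratio sets a member that fell more over a member that fell less, so it restates the fold changes above. How often the ratios of other gene pairs do not overlap was not computed, so the test adds no separate evidence.

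**Figure D3:**
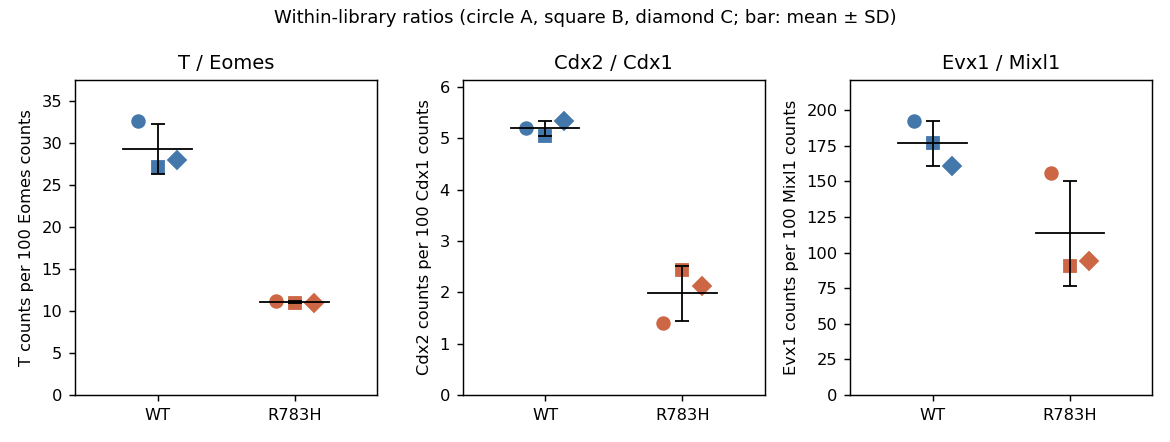
Counts of one member per 100 counts of another in each library (circle A, square B, diamond C), with the mean ± SD of 3 and axes from 0. T per 100 Eomes falls from a mean of 29.3 in WT to 11.1 in R783H, and Cdx2 per 100 Cdx1 from 5.198 to 1.98.

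Other genes of gastrulation and mesoderm did not share this direction as a list. Of 32 genes, 19 were tested, 6 of them called lower (31.6%) and 4 higher (21.1%), with a median log2 fold change of -0.11. Sp8, a zinc finger factor, rose by 1.44 (SE 0.23), Meis2, a homeobox cofactor, rose by 1.12 (SE 0.07) and Twist1, a bHLH factor of mesoderm and neural crest, rose by 1.02 (SE 0.18). Close relatives and partners of the members were among those called lower, and they are named here after their values were seen. Mesp2, the paralog of Mesp1, had 38, 53 and 31 counts in WT and 20, 29 and 21 in R783H, a log2 fold change of -1.21 (SE 0.24). Etv2 and Runx1, which act beside Tal1 in the blood and vessel lineages, changed by -2.11 (SE 0.30) and -1.52 (SE 0.26). Etv2 had 41, 43 and 30 counts in WT and 18, 8 and 9 in R783H, so the size of its change rests on few counts. Nkx1-2, a homeobox gene of the caudal epiblast, was well counted and fell from 46.6 ± 1.35 to 24.99 ± 0.963 CPM (SD, n = 3). Cdx4, the remaining Cdx gene, had 14 to 18 counts in WT and 7 to 15 in R783H and changed by -1.003 (SE 0.33), a call lost in 3 of 16 alternatives. Etv2 and Cdx4 reached the filter on low counts in every WT library but not in every R783H library. Like Tal1 they thus passed through WT, and their direction is no separate evidence. For the 8 genes given with a change or group means edgeR's adjusted p ran from 2.69e-07 for Nkx1-2 to 0.0183 for Cdx4.

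Among 23 paralogs of the members, 12 were tested, with 3 called lower and 4 higher. The T-box genes went both ways. Tbx15 rose from 0.837 ± 0.0901 to 3.79 ± 0.0123 CPM and Mga, a large T-box protein that also binds Max, from 228 ± 20.6 to 361 ± 51.1 CPM (SD, n = 3), whereas Tbx20, a cardiac T-box gene, fell from 4.46 ± 0.338 to 2.65 ± 0.844 CPM. Among 8 bHLH and LIM partners that factors such as Tal1 use, 6 were tested, with 2 lower and 2 higher, and 1 lower without R783H A or WT B. Tcf3 fell by 0.36 (SE 0.04), while Tcf4 rose by 0.76 (SE 0.10) and Tcf12 by 0.62 (SE 0.08). The changes of Mga, Tcf3 and Tcf4 shrank, under the offset for length and GC content, to 0.27, -0.19 and 0.48, each still called. For the 6 genes named from these lists edgeR's adjusted p ran from 8.09e-07 to 0.00706.

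The signals that induce the streak did not move together. Of 20 tested genes of the Wnt pathway 6 were called lower (30.0%) and 6 higher (30.0%), with a median of -0.02. The Wnt ligands Wnt11, Wnt5b and Wnt8a were lower, by log2 fold changes of -0.83 (SE 0.17), -0.35 (SE 0.06) and -0.77 (SE 0.25), the last lost in 4 of 17 alternatives. Wnt3a, at 76 to 109 counts in WT and 94 to 132 in R783H, was not called (-0.09, SE 0.14, adjusted p = 0.592, edgeR). With the length and GC offset Wnt5b stood at -0.17 and Notum at -0.20. Wnt3, the ligand that starts the streak in the embryo, had 6 to 7 counts in WT and 2 to 4 in R783H and was not tested. The Wnt feedback genes Rnf43 and Axin2 rose, by 1.73 (SE 0.15) and 0.36 (SE 0.05), and Notum fell by 0.38 (SE 0.06). Of the Wnt-responsive members, T and Cdx2 were lower in the same libraries. Cdx1 fell by only 0.31, and stood at -0.03 with the length and GC offset. A link between the members and the Wnt genes was not tested.

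In the Nodal pathway 18 genes were tested, and 10 rose (55.6%) while 6 fell (33.3%), or 3 with scaling by library size alone. The median was 0.26, opposite in sign to that of the members. Nodal itself rose from 74.6 ± 2.61 to 93.8 ± 6.29 CPM, and its targets and inhibitors Lefty1 and Lefty2 rose by 0.70 (SE 0.07) and 0.44 (SE 0.05). The co-repressor Skil rose by 0.74 (SE 0.08). The activin subunit gene Inhbb had 605 to 712 counts in WT and 68 to 105 in R783H, a log2 fold change of -3.27 (SE 0.11). In the BMP pathway 7 of 16 tested genes were lower (43.8%) and 5 higher (31.2%), with a median of -0.30. The ligand Bmp4 fell from 59.6 ± 2.04 to 43.5 ± 2.35 CPM, and the BMP targets Id1 and Id3 fell by 0.87 (SE 0.08) and 1.16 (SE 0.05). Msx2 is also induced by BMP, but a link between Msx2 and the BMP genes was not tested. The receptor gene Bmpr2 rose by 0.75 (SE 0.14), or 0.38 with the length and GC offset.

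Of the 4 pathways, FGF and ERK had the largest share called lower, with 12 of 19 tested genes lower (63.2%) and 4 higher (21.1%), and a median of -0.47. Fgf17 had 146, 163 and 133 counts in WT and 28, 37 and 49 in R783H, a log2 fold change of -2.37 (SE 0.17). Fgf8, the streak ligand, had 10 to 16 counts in WT and 7 to 11 in R783H, and its call (-1.08, SE 0.34) was lost in 7 of 15 alternatives. Fgf8 too passed the filter on low counts through WT, so its direction is no separate evidence. Fgf4, the abundant stem cell ligand, rose from 271 ± 2.10 to 335 ± 8.08 CPM (SD, n = 3). Over the called genes of the 4 pathways given with a change or group means, edgeR's adjusted p ran from 1.19e-08 for Inhbb to 0.0190 for Wnt8a. Nodal, Lefty1, Lefty2, Bmp4, Wnt3, Wnt3a, Wnt5b, Wnt8a, Axin2, Notum, Fgf4 and Fgf8 were chosen after their values were seen.

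**Figure D4:**
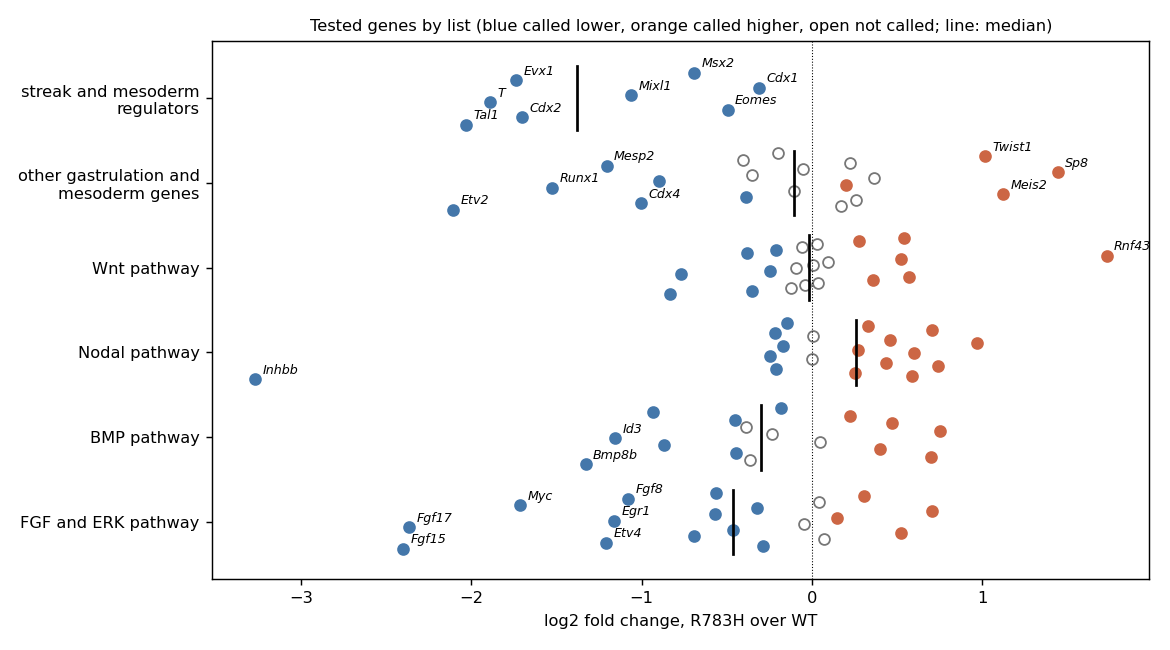
Log2 fold change (R783H over WT) of every tested gene in the members' list and 5 related lists, with blue points called lower, orange points called higher and open points not called. Vertical lines are list medians, at -1.38 for the members and between -0.47 and 0.26 for the others, and the height within a row has no meaning.

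Markers of other cell types were measured beside the members, since several members also act outside mesoderm. Of 15 trophoblast markers 10 were tested, with 4 lower and 2 higher (5 with the length and GC offset), and their summed level was 198.7 to 205.5 CPM in WT and 171.7 to 184.2 CPM in R783H. The defining placental genes Prl3d1 and Tpbpa had 0 counts in every library. Tfap2c fell by 1.24 (SE 0.07), while Ascl2 and Gata3 rose by 1.10 (SE 0.24) and 0.73 (SE 0.18). Of 12 blood and endothelium markers 8 were tested, with 4 lower and 1 higher, a summed level of 99.7 to 101.9 CPM in WT and 103.4 to 114.7 CPM in R783H, and the globin genes Hba-x and Hba-a1 at 0 in every library. Pecam1, the 1 gene called higher, made up most of that sum, and the other 11 summed to 12.98 to 13.94 CPM in WT and 7.77 to 8.63 CPM in R783H. The 4 lower were Etv2, Runx1, Cd34 and Kdr, and all but Cd34 are also in the gastrulation list. The call of Kdr was lost in 6 of 17 alternatives. Of 15 endoderm markers 10 were tested, with 2 lower (4 without R783H B) and 4 higher, the summed level was 342 to 352 CPM in WT and 447 to 472 CPM in R783H, and Afp was at 0. The basement membrane gene Lama1 alone rose from 138 to 265 CPM, and the other 14 summed to 202.7 to 211.0 CPM in WT and 182.2 to 202.8 CPM in R783H. Gata4 rose by 1.08 (SE 0.15) and Cxcr4 by 1.19 (SE 0.23), while the 2 that fell, named after their values were seen, were Lamb1 by 0.66 (SE 0.06) and Col4a1 by 0.68 (SE 0.10). Of 9 formative and primed epiblast markers 8 were tested, with 3 lower and 4 higher, and Otx2 rose by 2.04 (SE 0.11). Pou3f1 fell by 1.20 (SE 0.16) and Sox3 by 0.57 (SE 0.13), the latter a call lost with the length and GC offset (-0.18, adjusted p = 0.203, edgeR). For the 11 marker genes given with a change edgeR's adjusted p ran from 6.34e-08 to 0.00349. Neural markers had 2 lower and 2 higher of 5 tested, and fibroblast markers 1 lower and 1 higher of 4 tested. The 2 neural genes called lower became 1 without R783H C or any 1 WT library, and the fibroblast gene called higher became 0 without R783H C or WT A. The part of other cell types in the members' decrease was not tested.

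The profile of T over the 6 libraries was compared with those of 11996 other genes averaging at least 50 counts in the higher group, as the root mean square difference of log2 CPM centred on each gene's mean. Among the 5 nearest, 3 identifiers matched no symbol in the reference tables used. The nearest of all was Entrez 19791 (0.0493), at 750.3 ± 62.5 CPM in WT and 200.8 ± 7.33 CPM in R783H (SD, n = 3). Entrez 100861531 (0.0764) was far more abundant, at 11715 ± 1206 CPM in WT and 3303 ± 133 CPM in R783H, so an abundant transcript moved with T, and its part in the members' decrease was not tested. The 2 with a symbol were Zfp423 (0.0712) and Gm13160 (0.0778). Zfp423, a zinc finger cofactor of SMAD signalling, fell from 26.3 ± 0.828 to 7.40 ± 0.610 CPM (SD, n = 3), and the predicted gene Gm13160 from 6.18 ± 0.320 to 1.62 ± 0.0950 CPM. With 6 libraries in 2 groups, likeness to T mostly means a similar difference between the groups.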

How the data were processed

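Raw read counts per Entrez gene were deposited by the authors as whole numbers, 1 column per library, per the file header. CASAVA 1.4, HISAT2, SAMtools and the build mm10 are named in the submitters' processing notes. The counting tool, annotation and use of strand are not given in the sources used here. Columns were matched to libraries by their titles, and 0 columns were left out.

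Symbols came from RefSeq GRCm38.p6, which matched 25275 identifiers. The tools were edgeR 4.0.16, DESeq2 1.42.0 and limma 3.58.1 in R 4.3.3. Low counts were removed by filterByExpr (minimum count 10, minimum total 15), TMM scaling was applied, and the groups were compared by the two-sided quasi-likelihood test of edgeR, p adjusted by Benjamini-Hochberg across the 14199 genes left. A call means an adjusted p under 0.05. The SE is the log2 fold change divided by the square root of F. Means are ± SD over 3 libraries. On simulated counts for R783H against WT with 14199 genes, the fit recovered 88 of 100 genes changed 2-fold and 79 of 100 changed 1.5-fold, with 10 calls among unchanged genes. Far fewer genes were changed in the simulation than were called in the data, and they were drawn at any abundance. These rates may therefore not hold for the data or for the rare members.

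Transcript lengths, GC content and exon overlaps came from GENCODE M21, and near-identical copies from BLAST 2.17.0 (98% identity over at least 100 nt), which found none for the members beyond stretches of Eomes and Msx2 of at most 119 nt. Of the other genes named with a fold change or group means, Trim71, Nkx1-2, Runx1, Wnt11, Axin2, Notum, Bmp4, Gata3, Pou5f1, Pou3f1, Col4a1 and Otx2 share exons with another gene. Totals of 20894277 to 29079670 counts set the precision, and counting error alone overstates it, since reads were not tied to single molecules by identifiers.

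The members and lists were chosen with earlier results of these data known. Named genes are the members, Trim71, the genes whose profile is nearest to T, and in every other list the 3 called genes that changed most among those with at least 50 counts on average in the higher group. Others are stated to be chosen after their values were seen. Alternatives covered scaling, filters, DESeq2, limma-voom, equal depth, a length and GC offset, a replicate block and leaving out each library. Not every gene that the rule for named genes picks is reported here.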

Additional observations from a re-analysis of the deposited data

How the results depend on the processing

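The 8 members called lower stayed 8 under 14 of 17 alternatives and were 7 under 3. These were at least 10 counts in every library, where Tal1 was not tested, and the length and GC offset, alone or with the replicate block, where Cdx1 stood at -0.03. T, Eomes, Mixl1, Evx1, Cdx2 and Msx2 kept their direction and call in 17 of 17 alternatives and Tal1 in 16 of 16. The median of -1.38 ran from -1.49 without R783H replicate B to -1.25 without R783H replicate A when a library was left out, was -1.49 at equal depth, and was -1.05 over 7 genes with at least 10 counts in every library, since Tal1 was not among them. Trim71 changed sign, to -0.22 with the length and GC offset and -0.22 with that offset and the replicate block, and ran from -0.022 without R783H replicate A to 0.13 without WT replicate C. Letters did not pair the libraries: deviations from group means correlated across genes at -0.07, 0.01 and 0.09 for A, B and C, and R783H A and B each correlated best with a WT library of another letter. With the replicate block the members' median was -1.38 and 9260 genes were called, against 9152 without it. With library size alone the median of all genes moved from 0.03 to 0.11. Depth limits Mesp1, Hand1 and the size of the change in Tal1.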
